A study of Mus musculus with 2 samples.

Results

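The genes described here are 7 genes of growth arrest and the stress that precedes it, several of them established targets of the transcription factor p53: Cdkn1a, Btg2, Plk2, Zmat3, Cdkn1b, Gadd45a and Gadd45g. They were taken by symbol from the 33670 gene symbols of the deposited matrices, and each had a single identifier there. Single-cell transcriptomes came from embryoid bodies (clumps of differentiating stem cells) of the male mouse embryonic stem cell line J1. They had received dTAG13 for 2 days, or DMSO, the solvent control, for the same time, and were dissociated with trypsin. dTAG13 is a small molecule that leads proteins fused to an FKBP12 variant to degradation. Which protein is tagged in these cells is not said in the labels, nor whether the DMSO cells come from the same clone, and the series title names Tex10.

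Each group was 1 library, so no difference below has a replicate check, no p-value was computed, and every interval is a 95% interval for counting error only. After filtering, 11588 dTAG13 cells and 17878 DMSO cells remained, with 91808969 and 117189816 UMIs (unique molecular identifiers, each a counted transcript). Medians per cell were 7072.5 UMIs and 2251 genes with dTAG13, and 6014 UMIs and 1966 genes with DMSO. Levels are given as CPM, UMIs scaled to a library total of 1000000. In all, 64 barcodes occurred in both libraries. Tex10 mRNA stood at 64.7 CPM with dTAG13 and 81.3 CPM with DMSO, which does not check the labels, since dTAG13 acts on protein. The cells carried pluripotency transcripts in both libraries: Pou5f1 stood at 516 CPM with dTAG13 and 612 CPM with DMSO, and none of the 9 genes shared by pluripotent states differed by 1.5-fold. Genes of the naive state did differ. Of 13 measured, 0 were at least 1.5-fold higher with dTAG13 and 5 lower, where 5.4% of all genes were lower. Their median log2 ratio of dTAG13 over DMSO was -0.53.

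p53 is kept low by the ubiquitin ligase Mdm2 and accumulates after DNA damage or a fault in ribosome assembly, mostly through slower protein turnover. It then activates genes that halt the cell cycle, above all Cdkn1a, whose product p21 inhibits cyclin-dependent kinases, together with genes of DNA repair, cell death and its own feedback. Mouse embryonic stem cells divide fast with a short G1 phase. Some of these genes also answer to other signals: Btg2, Plk2 and the GADD45 genes are induced by growth factors and stress, and p27, the product of Cdkn1b, is controlled largely at the level of protein.

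The promoter letters of 4 of these genes are shown because their motifs differ and the genes differ in how far the libraries stood apart. They are the 250 bases before the transcript start in RefSeq (GRCm38.p6), written 5′ to 3′ along the gene's strand. Capitals mark the paired CATG cores of a p53 site in Cdkn1a, and the cAMP response element TGACGTCA, the site of CREB and ATF factors, in Btg2 and Plk2. The Gadd45a window holds neither and has no capitals.
Cdkn1a, chr17:29090729-29090978, plus strand: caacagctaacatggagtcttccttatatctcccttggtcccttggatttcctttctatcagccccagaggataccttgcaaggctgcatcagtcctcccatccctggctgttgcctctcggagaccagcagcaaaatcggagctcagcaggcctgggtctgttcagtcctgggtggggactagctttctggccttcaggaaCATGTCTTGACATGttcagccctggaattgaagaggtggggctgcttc
Btg2, chr1:134079156-134079405, minus strand: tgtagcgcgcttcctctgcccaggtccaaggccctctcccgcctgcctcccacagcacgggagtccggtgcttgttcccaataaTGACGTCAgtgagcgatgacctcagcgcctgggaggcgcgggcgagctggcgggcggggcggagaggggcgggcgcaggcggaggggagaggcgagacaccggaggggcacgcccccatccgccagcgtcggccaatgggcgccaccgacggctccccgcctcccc
Plk2, chr13:110394794-110395043, plus strand: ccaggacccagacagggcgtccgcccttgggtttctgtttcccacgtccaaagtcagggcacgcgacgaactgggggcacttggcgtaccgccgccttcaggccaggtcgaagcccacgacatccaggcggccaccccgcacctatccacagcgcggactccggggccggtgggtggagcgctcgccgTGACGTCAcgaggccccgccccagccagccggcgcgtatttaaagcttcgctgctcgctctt
Gadd45a, chr6:67037408-67037657, minus strand: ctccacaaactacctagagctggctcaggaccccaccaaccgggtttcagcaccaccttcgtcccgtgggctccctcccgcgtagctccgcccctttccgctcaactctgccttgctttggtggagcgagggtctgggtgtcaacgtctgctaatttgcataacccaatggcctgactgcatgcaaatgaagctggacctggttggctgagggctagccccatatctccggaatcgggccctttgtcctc

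The table matched 6 of the 7 genes with 7 windows, as Cdkn1a has a second start 2790 bases downstream. Zmat3 was not matched. The core CATGNNNNNNCATG was found at -48 to -35 of the upstream Cdkn1a start, and 161 of 32851 windows of the table hold it on either strand (0.490%). TGACGTCA was found at -166 to -159 of Btg2 and at -62 to -55 of Plk2, and 508 windows hold it (1.55%). The looser consensus of the p53 half-site was found in 2 of the 7 windows, those of Cdkn1a and Gadd45a, where 7.13% of all windows have it. The Cdkn1a window has it at -73 to -64 and at -51 to -42, and only the match at -51 to -42 overlaps the core. CCAAT was found in 4 of the 7 windows (33.8% of all) and GGGCGG in 5 (32.7%). TATAAA was found only in Gadd45g among the 7, at -27 to -22 (12.4% of all), while TTTGAA (16.0% of all) and TGANTCA (6.75%) were in none. A match here is a stretch of letters, not a measured site. p53 sites farther from the start or inside a gene lie outside these windows, and 3′ UMIs do not tell which Cdkn1a start was used.

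Of the 7 genes, 5 stood 1.5-fold or more higher with dTAG13 than with DMSO, and 0 stood lower by as much. All 7 reached 5 CPM in a library. Among the 8817 genes of the files that did so, 14.2% were higher by 1.5-fold and 5.4% lower. The same 5 genes were at least 2-fold higher, against 6.17% of all genes. The median log2 ratio of dTAG13 over DMSO was 1.61 for the 7 genes, which is the value of Gadd45g, and 0.09 for all genes. Their summed level was 632 CPM with dTAG13 and 179 CPM with DMSO, a ratio of 3.52 (3.47 to 3.58). Set against the name p53-driven growth arrest, Cdkn1a, Btg2, Plk2, Zmat3 and Gadd45g passed the 1.5-fold mark. Cdkn1b was higher by less, at a ratio of 1.31 (1.22 to 1.40), and Gadd45a was flat at 1.02. No sample is labelled as lacking p53, so whether it drives any of the 7 was not tested.

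Cdkn1a (ENSMUSG00000023067; chr17:29090976-29100727, plus strand, GENCODE M21 on GRCm38, as for all gene positions here) encodes the inhibitor p21. It had 21317 UMIs in the dTAG13 library and 7836 in the DMSO library, or 232 and 66.9 CPM. The ratio was 3.47 (3.38 to 3.56), and 178 of the 8817 genes had a higher one. Its annotated span overlaps an antisense gene, AC167363.2, which is not among the symbols counted.

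Btg2 (ENSMUSG00000020423; chr1:134075170-134079120, minus strand) encodes an antiproliferative protein that recruits the CCR4-NOT deadenylase to mRNAs. It had 11049 UMIs with dTAG13 and 1761 with DMSO, or 120 and 15.03 CPM. With a ratio of 8.01 (7.62 to 8.43), it had the largest difference of the 7 genes, and 33 of all genes lay above it.

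Plk2 (ENSMUSG00000021701; chr13:110395046-110400844, plus strand) encodes a polo-like kinase that acts at centrioles and, unlike Plk1, is linked to checkpoint arrest. It had 12942 UMIs with dTAG13 and 2383 with DMSO, or 141 and 20.3 CPM, a ratio of 6.93 (6.64 to 7.24). Zmat3 (ENSMUSG00000027663; chr3:32334792-32366014, minus strand) encodes an RNA-binding zinc finger protein that regulates splicing downstream of p53. It had 6140 UMIs with dTAG13 and 3392 with DMSO, or 66.9 and 28.9 CPM, a ratio of 2.31 (2.22 to 2.41). Both genes thus lay above the 1.5-fold mark, with 47 of all genes above Plk2 and 417 above Zmat3.

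The GADD45 proteins are small stress sensors that bind the kinase Map3k4 and other partners. Gadd45g (ENSMUSG00000021453; chr13:51846678-51848468, plus strand) had 2549 UMIs with dTAG13 and 1066 with DMSO, or 27.8 and 9.10 CPM, a ratio of 3.05 (2.84 to 3.28). Gadd45a (ENSMUSG00000036390; chr6:67035096-67037457, minus strand), the member of the family best known as a p53 target, had 2343 UMIs with dTAG13 and 2945 with DMSO. These are 25.5 and 25.1 CPM, a ratio of 1.02 (0.961 to 1.07) whose interval includes 1. Scaled by the median of ratios over genes, which moves every log2 ratio by 0.07, the Gadd45a ratio was 0.964. The antisense gene E230016M11Rik that overlaps Gadd45a had 0.632 CPM with dTAG13 and 0.375 CPM with DMSO.

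Cdkn1b (ENSMUSG00000003031; chr6:134920401-134925513, plus strand), the gene of p27, had 1690 UMIs with dTAG13 and 1648 with DMSO. Its levels were 18.4 and 14.1 CPM, a ratio of 1.31 (1.22 to 1.40), and 2073 of the 8817 genes had a higher ratio. Cdkn1b and Gadd45a therefore stayed below the 1.5-fold mark in these libraries.

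**Figure D1:**
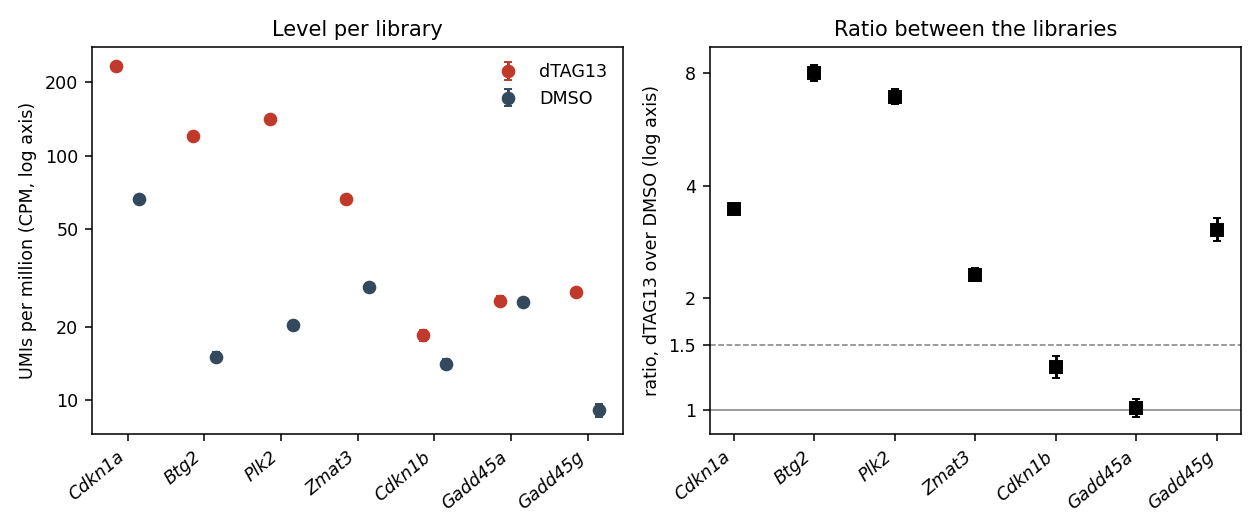
Level of each gene in CPM (left, log axis) in the dTAG13 and DMSO libraries, and the ratio of dTAG13 over DMSO (right, log axis, lines at 1 and 1.5); bars are 95% counting intervals and 1 library stands behind each point. Btg2 and Plk2 had the highest ratios, 8.01 and 6.93, and Gadd45a lay at 1.02.

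The level of Trp53 mRNA, which encodes p53 itself, was 456 CPM with dTAG13 and 460 CPM with DMSO. Mdm2, target and inhibitor of p53, stood at 364 CPM with dTAG13 and 45.3 CPM with DMSO, a ratio of 8.04. Of 12 measured genes on a list of other p53 targets in growth arrest, 9 passed the 1.5-fold mark upward with dTAG13 and 0 downward, with a median log2 ratio of 0.95. Trp53inp1, a cofactor of p53, had 116 CPM with dTAG13 and 28.3 CPM with DMSO, and the cyclin G gene Ccng1 had 232 CPM with dTAG13 and 72.3 CPM with DMSO. Sesn2, an inhibitor of mTORC1, had a ratio of 2.25, and Btg1, a relative of Btg2, one of 2.01. A wider list of other p53 targets had 21 of 26 measured genes at least 1.5-fold higher and 0 lower, with a median log2 ratio of 1.43. It shares genes with the first list, Ccng1, Trp53inp1 and Sesn2 among them. Of its 26 measured genes 22 had a ratio above 1, and Tigar had the lowest ratio, 0.704. Both counts are to be read against the 14.2% of all genes that were higher by 1.5-fold and the 5.4% that were lower. Fas had the highest ratio of the wider list, 24.7 (16.5 to 38.5), at 5.26 CPM with dTAG13 and 0.213 CPM with DMSO. Among genes of that list with at least 10 CPM in a library, Mdm2 was highest. Next came Zfp365, which protects fragile sites, at a ratio of 7.58, and the cell death genes Perp and Pmaip1, at 6.68 and 5.49.

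Relatives of the 7 genes did not all differ with them. The family counts below include the genes of the 7 themselves, and 14.2% of all genes were higher by 1.5-fold. Of 6 measured inhibitors of cyclin-dependent kinases, 3 were at least 1.5-fold higher with dTAG13: Cdkn1a, Cdkn1c and Cdkn2b. Cdkn2b, the gene of p15, had 22.9 CPM with dTAG13 and 4.68 CPM with DMSO, a ratio of 4.89. Cdkn1c, the imprinted gene of p57, had 40.3 CPM with dTAG13 and 21.8 CPM with DMSO. In the BTG and TOB family 3 of 5 measured genes passed the mark: Btg2, Btg1 and Tob1. The ratio of Tob1 was 2.05, and that of Btg3, which did not pass, was 1.29. Among the polo-like kinases 2 of 4 passed it: beside Plk2, Plk3 had a ratio of 1.59, while Plk1, the mitotic kinase, had 0.949 and Plk4, of centriole duplication, 1.12. In the GADD45 family Gadd45g alone passed it, and Gadd45b stood at 59.8 CPM with dTAG13 and 41.0 CPM with DMSO. Of the ZMAT genes Zmat2 and Zmat5 had ratios of 0.874 and 0.785, below that of Zmat3.

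The partners through which these genes act were taken as 4 lists, to be read against the 14.2% of all genes that were higher by 1.5-fold and the 5.4% that were lower. Of 21 measured cyclins, cyclin-dependent kinases and pocket proteins, 3 were at least 1.5-fold higher with dTAG13 and 5 lower, with a median log2 ratio of -0.34. Rb1, the retinoblastoma gene, stood at 42.3 CPM with dTAG13 and 8.99 CPM with DMSO, a ratio of 4.70. The G1 cyclin genes did not all differ one way: Ccnd3, Ccne1 and Ccne2 had ratios of 0.515, 0.520 and 0.620, while Ccnd1 had 0.788 and Ccnd2 2.32, the last 2 named after their values were seen. Of 6 measured genes that turn over p27 or transcribe Cdkn1b, 1 passed the mark: Foxo3, a transcription factor of Cdkn1b, at a ratio of 2.44. Skp2, the F-box protein that marks p27 for degradation, stood at 20.5 CPM with dTAG13 and 28.7 CPM with DMSO. Of 7 measured kinases downstream of GADD45 proteins 1 passed it, Map2k4, at 1.73, and Map3k4 had a ratio of 1.10. Of the 8 genes tied to Btg2, which are deadenylase and poly(A)-binding genes and Prmt1, 0 passed it in either direction. Only 2 had a ratio above 1, Cnot1 at 1.19 and Pabpc1 at 1.24, while Pabpc4 had 0.768.

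Within single cells, comparisons need equal depth, so UMIs were drawn at random down to 4000 in each cell. This left 10720 dTAG13 cells and 15908 DMSO cells, as 868 and 1970 cells were shallower. A Cdkn1a UMI was then found in 53.8% of dTAG13 cells and 20.8% of DMSO cells (71.1% and 29.97% without thinning). For Btg2 the shares were 37.7% of dTAG13 cells and 5.37% of DMSO cells (54.9% and 8.79% without thinning), and for Plk2 they were 41.7% and 7.07% (59.2% and 10.7%). All of these shares lay apart beyond their counting intervals.

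Zmat3 was detected in 23.0% of thinned dTAG13 cells and 10.7% of DMSO cells (38.7% and 16.7% without thinning). Gadd45g was found in 8.64% of dTAG13 cells and 3.16% of DMSO cells (14.3% and 5.12% without thinning), and Cdkn1b in 6.60% and 5.20% (12.8% and 8.53%). For Gadd45a, whose summed level was flat, the thinned shares were 9.12% of dTAG13 cells and 9.03% of DMSO cells (16.4% and 14.1% without thinning). The share in the dTAG13 library exceeded the share in the DMSO library beyond both intervals for 6 of the 7 genes in thinned cells, the exception being Gadd45a, and for all 7 without thinning, where dTAG13 cells were deeper. With this many cells the intervals are narrow, so small gaps such as that of Cdkn1b pass. The same count was not made over all genes, so whether 6 of 7 is unusual is not known.

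Free RNA can give a UMI in a cell that does not express the gene, and no cells known to lack these genes were at hand. UMIs of Zscan4 genes outside the cluster that expresses them put an upper bound on free RNA of 5.58% (4.37 to 7.02) of UMIs with dTAG13 and 3.66% (2.35 to 5.45) with DMSO, if free RNA has the make-up of the library. At the upper ends, free RNA alone would give a Cdkn1a UMI in 6.31% of dTAG13 cells and 1.45% of DMSO cells. The same values were 3.32% and 0.327% for Btg2, and 3.88% and 0.442% for Plk2. For Zmat3, Cdkn1b, Gadd45a and Gadd45g they ran from 0.515% to 1.86% with dTAG13 and from 0.198% to 0.629% with DMSO. All 7 genes were detected in more cells than these bounds in both libraries.

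Cells with several UMIs of Cdkn1a, Plk2 or Btg2 were much rarer in the DMSO library. At least 3 Cdkn1a UMIs were held by 9.45% of thinned dTAG13 cells and 0.918% of DMSO cells. For Plk2 the shares were 3.54% and 0.163%, and for Btg2 2.36% and 0.0503%. Gadd45a and Cdkn1b went the other way on few cells. At least 3 Gadd45a UMIs were held by 4 dTAG13 cells (0.0373%) and 14 DMSO cells (0.0880%). For Cdkn1b these were 0 dTAG13 cells and 2 DMSO cells. Gadd45g was the most uneven gene for its level: few cells had it, 51 thinned dTAG13 cells (0.476%) held 3 or more UMIs of it, and its variance over cells was 1.51 times its mean with dTAG13 and 1.16 times with DMSO. For Cdkn1a the variance was 1.44 times the mean with dTAG13 and 1.28 times with DMSO.

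The number of the 7 genes detected per thinned cell had a median of 2 with dTAG13 and 0 with DMSO (3 and 1 without thinning). None of the 7 was found in 11.9% of dTAG13 cells, against 54.2% of DMSO cells (4.39% and 40.3% without thinning). At least 2 were found in 58.4% of dTAG13 cells and 12.8% of DMSO cells, at least 3 in 25.8% and 2.38%, and at least 4 in 7.05% and 0.352%. The highest number was 6, in 9 dTAG13 cells, against 5, in 5 DMSO cells. More than 2 summed UMIs of the 7 genes, the 90th percentile of DMSO cells, were held by 44.5% (43.5 to 45.4) of dTAG13 cells, against 5.63% (5.27 to 5.996) of DMSO cells.

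**Figure D2:**
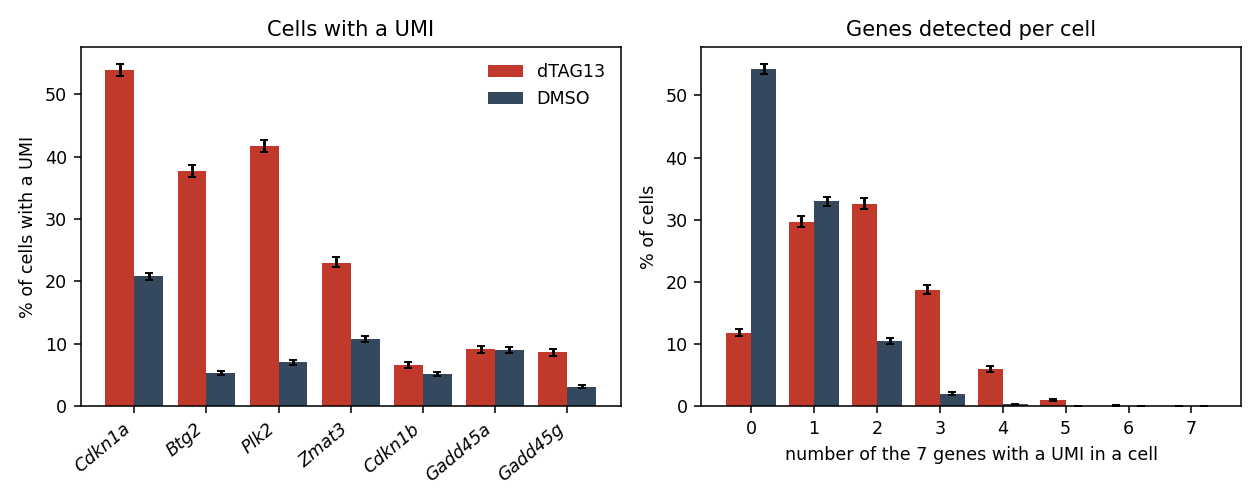
Share of cells with a UMI of each gene (left) and share of cells by how many of the 7 genes they held (right), in percent of dTAG13 and DMSO cells thinned to 4000 UMIs; bars are 95% binomial intervals. Cdkn1a was found in 53.8% of dTAG13 cells and 20.8% of DMSO cells, and 11.9% and 54.2% of cells held none of the 7.

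Detection of 2 genes in the same cell was set against the product of their separate shares. Of the 21 pairs, 16 met more often than the product in each library. Of the 5 DMSO pairs below it, all included Cdkn1b. The observed number of cells was 0.698 to 1.15 times the product with dTAG13 (median 1.03), and 0.821 to 2.50 times with DMSO (median 1.22). Btg2 and Plk2 met in 1835 dTAG13 cells and 151 DMSO cells, 1.09 and 2.50 times the product. Within classes of cells with like UMIs of other p53 targets, the factors for this pair were 1.06 with dTAG13 and 1.81 with DMSO. Cdkn1a and Plk2 met at 1.05 times the product with dTAG13 and 1.55 times with DMSO, and Cdkn1a and Btg2 at 1.08 and 1.45 times. Of the 854 thinned DMSO cells with Btg2, 151 thus held Plk2 as well. A factor can be no larger than the inverse of the larger of the 2 shares. For pairs such as Btg2 and Plk2, found in more dTAG13 cells, this ceiling was lower with dTAG13. The factors of the libraries are thus not on a like scale, and whether they differ between conditions was not tested.

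Cells were next ordered by the summed UMIs of 27 other p53 targets, a list that holds none of the 7 genes. Its median was 7 UMIs per thinned cell with dTAG13 and 2 with DMSO. In the class with 7 or more UMIs lay 5842 dTAG13 cells (54.5%) and 523 DMSO cells, and in the class with 0 or 1 lay 270 dTAG13 cells (2.52%) and 6553 DMSO cells. Plk2 differed most over these classes: its mean per cell in the highest class was 2.94 (2.31 to 3.81) times that in the lowest class with dTAG13 and 9.73 (7.95 to 11.9) times with DMSO. For Btg2 these factors were 2.54 with dTAG13 and 5.90 with DMSO, and for Cdkn1a 1.95 and 2.87. Zmat3 had factors of 1.73 with dTAG13 and 2.16 with DMSO, and Gadd45g 1.73 and 2.42.

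Cdkn1b showed no such order, with factors of 1.12 (0.691 to 1.94) with dTAG13 and 0.996 (0.657 to 1.45) with DMSO. Gadd45a, with 1.28 (0.837 to 2.06) with dTAG13, had 1.72 (1.34 to 2.18) with DMSO. Inside the DMSO library it was thus higher in cells with more p53 target UMIs, although its levels over whole libraries were alike. Ratios between the libraries were also taken at like p53 target UMIs. From the lowest to the highest class the Btg2 ratio was 6.92, 7.08, 5.06, 4.89 and 2.98, the Plk2 ratio 7.03, 4.51, 4.61, 3.21 and 2.12, and the Cdkn1a ratio 2.91, 2.54, 2.51, 2.05 and 1.98. For the 7 genes summed, the ratio was 2.72 in the lowest class and 1.93 in the highest. The Gadd45a ratio was 0.916, 0.838, 1.09, 0.803 and 0.682. Its intervals lay below 1 in the fourth class (0.687 to 0.938) and in the highest (0.539 to 0.872). A class with few UMIs sorts cells only roughly, and cells of the 2 libraries in the same class need not have the same true level.

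**Figure D3:**
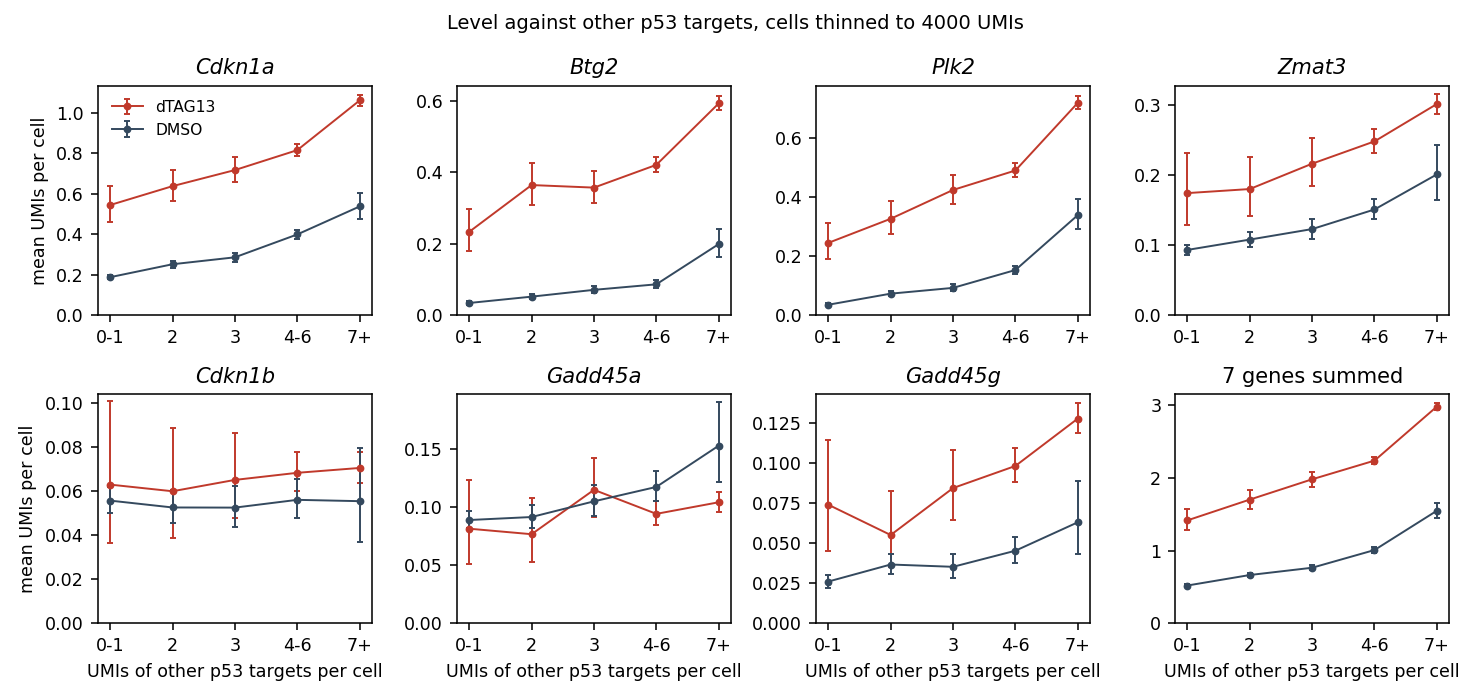
Mean UMIs per thinned cell of each gene, and of the 7 summed, in classes of cells by the summed UMIs of 27 other p53 targets, in the dTAG13 and DMSO libraries; bars are 95% counting intervals. The lines of Plk2 and Btg2 climb with the class in both libraries, that of Cdkn1b does not, and dTAG13 lies above DMSO in every class for the sum.

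Because these genes restrain division, their levels were set against 47 mitotic transcripts. As a list these transcripts differed little, with 2 of 47 at least 1.5-fold higher with dTAG13, 0 lower, and a median log2 ratio of 0.10. The spread between cells was wider with dTAG13: mitotic UMIs per thinned cell had a 10th percentile of 6, a median of 23 and a 90th percentile of 47 with dTAG13, and of 12, 22 and 38 with DMSO. Of 26 S phase genes, 0 were at least 1.5-fold higher and 8 were lower, with Gmnn at a ratio of 0.537 and Cdc6 at 0.553. Among all genes, 14.2% were higher by 1.5-fold and 5.4% lower.

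Cdkn1a, Btg2, Plk2, Zmat3 and Gadd45g were higher with dTAG13 in each of 4 classes of mitotic UMIs, with limits at the quartiles of DMSO cells. With 0 to 16 mitotic UMIs lay 3799 dTAG13 cells and 4180 DMSO cells, and with 31 or more lay 3688 and 3783. From the lowest to the highest class the ratio was 3.57, 3.61, 3.51 and 3.02 for Cdkn1a, 8.97, 8.69, 8.52 and 7.71 for Btg2, and 6.86, 7.12, 7.27 and 6.73 for Plk2. For Zmat3 it lay between 2.26 and 2.55, and for Gadd45g between 2.84 and 3.48. Cells rich in mitotic transcripts therefore carried the difference as well as cells poor in them.

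Inside the dTAG13 library, Cdkn1a was slightly lower in cells with the most mitotic UMIs: the mean in the highest class was 0.846 (0.808 to 0.887) times that in the lowest, against 0.999 (0.920 to 1.08) with DMSO. Narrower classes of 5 mitotic UMIs, added after the data were seen, did not give a steady fall. Mean Cdkn1a per dTAG13 cell was 1.32 UMIs in the 746 cells with 0 to 4 mitotic UMIs, 1.12 in the cells with 5 to 9, between 0.815 and 0.881 in every class from 10 to 49, and 1.05 in the 805 cells with 50 or more. In DMSO cells it was 0.324 in the 37 cells of the lowest class, 0.246 at 15 to 19, and 0.440 in the 352 cells of the highest. In the lowest class, at 15 to 19 and in the highest class, the 7 genes summed had means of 3.35, 2.23 and 3.004 UMIs with dTAG13 and 0.784, 0.653 and 1.13 UMIs with DMSO.

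Cdkn1b differed most of the 7 between mitotic classes, and was higher in cells with more mitotic transcripts. Its highest class held 1.64 (1.37 to 1.97) times the mean of the lowest with dTAG13 and 1.77 (1.45 to 2.17) times with DMSO. For Gadd45a the same factors were 1.04 with dTAG13 and 1.09 with DMSO, and for Plk2 1.01 and 1.03. Across single cells, Pearson correlations of each gene with mitotic UMIs lay between -0.05 and 0.06 in both libraries, over 10720 and 15908 cells, which in such sparse counts is no finding.

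**Figure D4:**
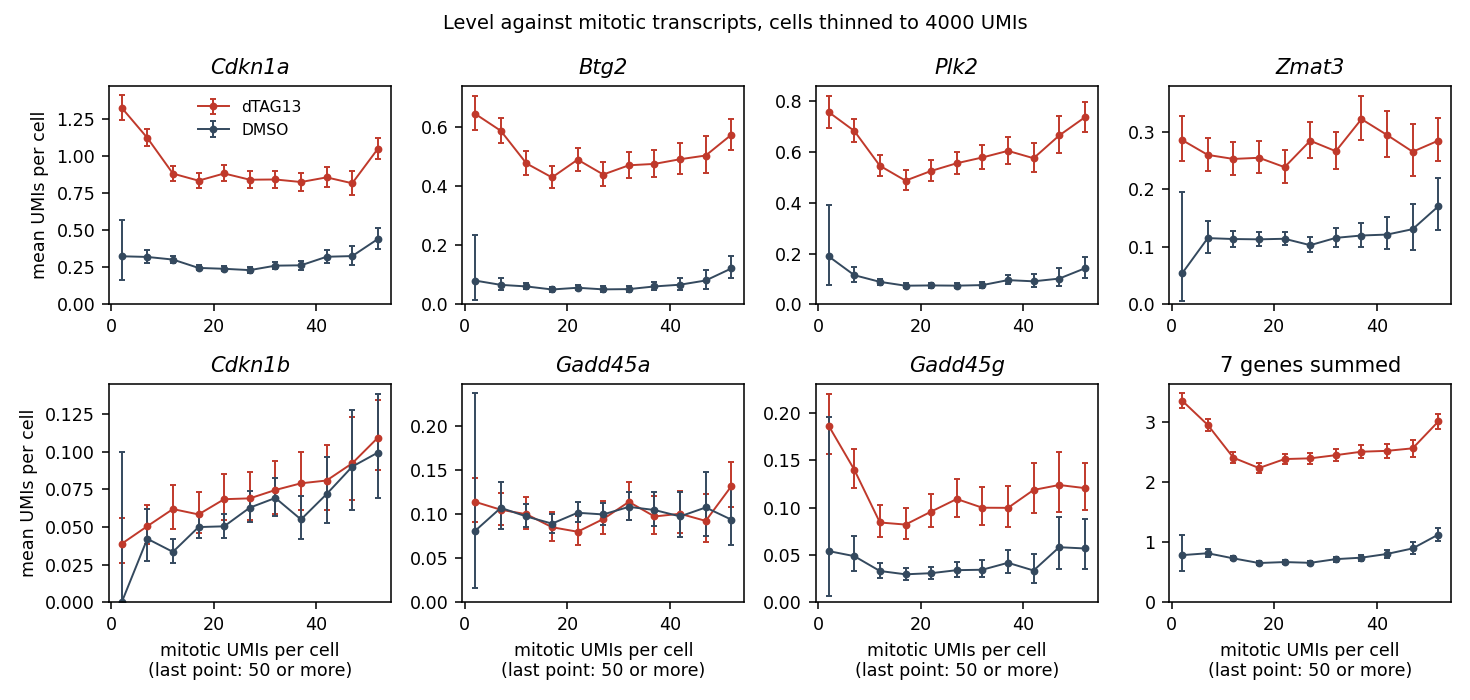
Mean UMIs per thinned cell of each gene, and of the 7 summed, by mitotic UMIs of the cell in classes of 5 (the last point is 50 or more), in the dTAG13 and DMSO libraries; bars are 95% counting intervals. In dTAG13 cells Cdkn1a has 1.32 and 1.12 UMIs in the 2 lowest classes, 0.815 to 0.881 in the classes from 10 to 49 and 1.05 in the highest, and Cdkn1b climbs with mitotic UMIs in both libraries.

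Many genes that respond to dissociation, though not all, were higher with dTAG13 too. Of 9 measured immediate-early genes 6 were at least 1.5-fold higher with dTAG13 and 0 lower, against 14.2% and 5.4% of all genes. The list summed to 387 CPM with dTAG13 and 268 CPM with DMSO, and Jun had a ratio of 4.92. Ier2, the gene of the list with the highest level, stood at 158 CPM with dTAG13 and 174 CPM with DMSO. Egr1 had a ratio of 0.854. In the 2888 dTAG13 cells and 5864 DMSO cells with no immediate-early UMI, the ratios were 3.24 for Cdkn1a, 8.83 for Btg2, 7.67 for Plk2, 2.25 for Zmat3 and 2.997 for Gadd45g. The integrated stress response list had 4 of 12 measured genes higher and 1 lower, against the same 14.2% and 5.4%. It summed to 421 CPM with dTAG13 and 329 CPM with DMSO. In the 2214 dTAG13 cells and 4634 DMSO cells without its UMIs, the ratios were 3.23 for Cdkn1a, 8.96 for Btg2, 7.14 for Plk2, 2.16 for Zmat3 and 2.80 for Gadd45g. Each of these sets of cells lacked UMIs of 1 list only, and cells lacking both were not examined. No immediate-early UMI was found in 26.9% of thinned dTAG13 cells and 36.9% of DMSO cells. For the integrated stress response these shares were 20.7% and 29.1%. Thinned cells hold few UMIs of either list, so a cell without them may still express the list. The ratios in cells truly free of either response were therefore not tested.

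Cells of both libraries were clustered together with the 7 genes removed from the clustering features, though other p53 targets stayed among them. This gave 17 clusters, described by number and leading genes. The libraries mixed poorly, so a cluster held mostly by 1 library may reflect that library. Ratios were taken in the 12 clusters where each library had at least 50 cells. The 7 genes summed were at least 1.5-fold higher with dTAG13 in all 12, at ratios from 1.501 (1.36 to 1.67) in cluster 7 (Neurod1, Ms4a10) to 2.42 (2.27 to 2.57) in cluster 9 (Ebf1, Sox11). Single genes passed the mark in 12 of 12 clusters for Btg2 (2.07 to 5.35) and Plk2 (1.63 to 4.28), in 11 for Cdkn1a (1.38 to 3.33) and in 9 for Zmat3 (1.05 to 2.24). Of all genes that reached 5 CPM in a cluster, the share past the mark was 16.4%, 12%, 14.3%, 6.35%, 10.8%, 13.1%, 10.3%, 13.6% and 11.2% in clusters 1 to 9, and 18.8%, 35.8% and 26.8% in clusters 13, 15 and 16. The within-cluster ratios of all 4 genes were below those between whole libraries.

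The other 3 genes passed the mark in fewer clusters. Gadd45g, with 3.05 between libraries, passed the mark in 5 of 12 clusters, but its interval lay above 1 in only 2: in cluster 5 (Rhox9, Rhox6), at 32.3 CPM with dTAG13 and 19.9 CPM with DMSO, and in cluster 9, at 16.1 and 7.49 CPM. In cluster 13 (Hand1, Magea9), where it was highest in both libraries, Gadd45g stood at 64.4 CPM with dTAG13 and 65.1 CPM with DMSO. In cluster 8 (Cryge, Aard), where it was lowest, it stood at 3.57 CPM with dTAG13 and 2.06 CPM with DMSO, from 3 and 18 UMIs.

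Cdkn1b passed the mark in 0 of 12 clusters, with ratios from 0.706 to 1.49 and an interval above 1 only in cluster 9, and it too was highest in cluster 13 in both libraries, at 28.9 CPM with dTAG13 and 33.3 CPM with DMSO. Gadd45a also passed it in 0 of 12. Its ratio was above 1 in 2 clusters. Its lowest ratios, 0.605 (0.145 to 1.93) in cluster 15 and 0.627 (0.331 to 1.25) in cluster 13, have intervals that include 1. In cluster 4, led by histone genes, it was 23.8 CPM with dTAG13 and 33.8 CPM with DMSO, a ratio of 0.704 (0.544 to 0.924). Its highest level in any cluster was 74.4 CPM, from 31 UMIs in the 71 DMSO cells of cluster 17, which is led by the stress response genes Chac1 and Nupr1 and held 1 dTAG13 cell.

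Among the 15 clusters with at least 50 dTAG13 cells, the 7 genes summed were highest in cluster 11 (Krt19, Krt8), at 913 CPM, and in cluster 10 (Shisal2b, Atf3), at 823 CPM, and lowest in cluster 8, at 303 CPM. Clusters 10 and 11 held 1146 and 1134 dTAG13 cells but 6 and 4 DMSO cells, so no ratio was taken there. Cdkn1a stood at 352 CPM in cluster 11 and 291 CPM in cluster 10, against 115 CPM in cluster 3 (Krt17, Slfn9), and Btg2 at 193 CPM in cluster 11, against 34.5 CPM in cluster 8. Mitotic transcripts differed widely between both clusters, at 9083 CPM in cluster 10 and 3000 CPM in cluster 11, while other p53 targets summed to 2471 and 2389 CPM. Likewise clusters 6 (Phlda1, Ccn1) and 7 had 2455 and 9433 CPM of mitotic transcripts in dTAG13 cells and 670 and 577 CPM of the 7 genes. Without clusters 10 and 11, an alternative added after the data were seen, the same number of the 7 genes, 5, were past the mark, with ratios of 3.14 for Cdkn1a, 7.05 for Btg2, 6.31 for Plk2, 2.19 for Zmat3 and 2.54 for Gadd45g. Keratin genes of a trophoblast marker list lead cluster 11. Of the 8 measured genes of that list 6 were at least 1.5-fold higher with dTAG13 and 2 lower, against 14.2% and 5.4% of all genes. The list summed to 232 CPM with dTAG13 and 210 CPM with DMSO, and none of its 13 genes was at 0. Its part in the levels of the 7 genes was not tested.

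A minority of DMSO cells lay in the clusters where dTAG13 cells prevailed, and those cells were themselves high. In the 8 clusters that held a larger share of the dTAG13 library, the 7 genes summed to 656 CPM in 10376 dTAG13 cells and 360 CPM in 858 DMSO cells (4.80% of the library). In the other 9 clusters they summed to 444 CPM in 1212 dTAG13 cells and 171 CPM in 17020 DMSO cells. Among DMSO cells, Plk2 stood at 69.9 CPM in the 858 cells and 18.0 CPM in the rest, Btg2 at 46.9 and 13.5 CPM, Gadd45g at 23.5 and 8.41 CPM, and Cdkn1a at 131 and 63.8 CPM. The cells were sorted by clusters that used other p53 targets, so this gap is a description of that sorting.

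**Figure D5:**
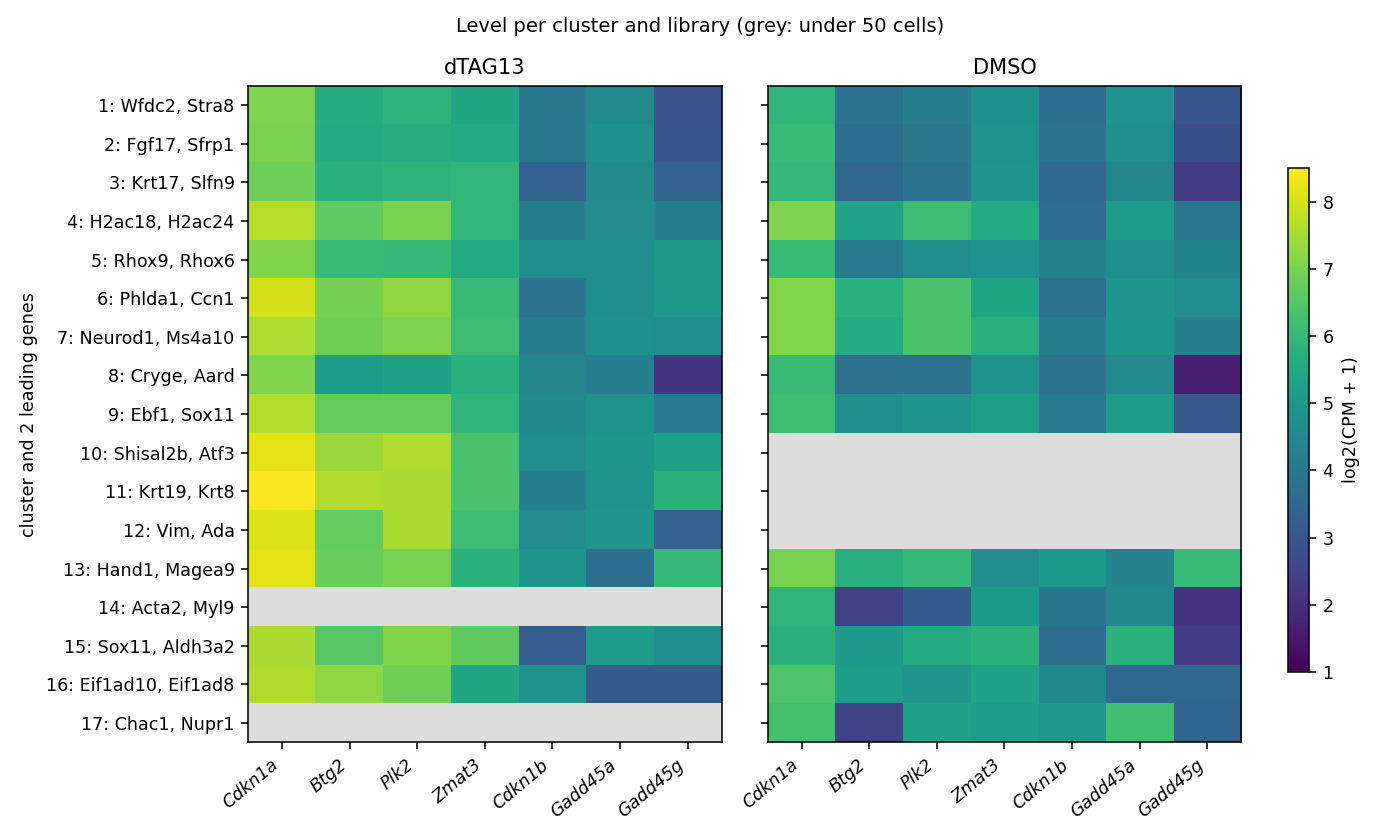
Level of each gene as log2(CPM + 1) in each of 17 clusters, dTAG13 left and DMSO right, with grey for under 50 cells; clusters are named by number and 2 leading genes. Cdkn1a and Btg2 are highest in clusters 11 and 10 and Plk2 in clusters 10 and 12 on the dTAG13 side, and Gadd45g is highest in cluster 13 on both sides.

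Over the 29 sums of a cluster in a library with at least 50 cells (15 dTAG13, 14 DMSO), the levels of Cdkn1a, Btg2 and Plk2 ran together. Pearson correlations on log2(CPM + 1) were 0.92 for Cdkn1a with Plk2, 0.92 for Btg2 with Plk2 and 0.90 for Cdkn1a with Btg2, against -0.18 for Cdkn1a with Gadd45a. The sums share their library and the difference between libraries, so the values describe and do not test. Genes most like Cdkn1a by this measure were Phlda3 (0.96), Bloc1s2, Serpine2, Ercc5 and Cgref1. Those most like Btg2 were Ptpn14 (0.93), Plk2, Slc25a17, Phlda3 and Ccng1, and those most like Plk2 were Rap2b (0.95), Mdm2 (0.95), Phlda3, Trp53inp1 and Fbxw9. For Zmat3 they were Zfp365 (0.92), Psrc1, Cct4, Pmm1 and Mdm2. Gadd45g was most like Jun (0.90), Cdh1 (0.89), Cldn4, Atxn10 and S100a6. No gene came as close to Cdkn1b, where Faf2 had 0.82 and Cdc27 0.80, or to Gadd45a, where Ddx46 and Zfp414 each had 0.75.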

How the data were processed

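The deposited matrices hold UMI counts per gene and barcode, which the authors obtained from Cell Ranger (version 8.0.1, per the file headers). Seurat 5.0.1, R 4.3.2 and mm10 are named in the submitters' processing notes. Of 33696 identifiers, 1684 (5.00%) are absent from GENCODE M21, so the annotation behind the counts may differ from the one used for positions. The use of strand in counting is not stated in those sources. Barcodes with 500 or more genes and no more than 10% mitochondrial UMIs were kept. Scrublet called 0 doublets in each library, which is too few to trust, so doublets remain. UMIs were summed per library and scaled to CPM, with exact Poisson, conditional binomial and Clopper-Pearson intervals at 95%. Clustering used scanpy 1.11.5 (2000 variable genes, 30 components, 15 neighbours, leidenalg 0.10.2 at resolution 1, no integration). Library ratios and their intervals were tested on simulated Poisson sums, and thinning was checked on the dTAG13 cells. The simulated sums had no added spread between cells, and the other calculations were not tested in this way.

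The 7 genes and the gene lists were chosen with earlier results of these data known. The 7 genes, Trp53 and Mdm2 are always named, with up to 4 genes per list with the largest absolute log2 ratio among those with at least 10 CPM, and the 5 genes most like each of the 7, of which some are left out. Tex10 and the marker Pou5f1 are named to describe the samples. Fas, under 10 CPM, is named because its ratio was the highest of its list.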

Additional observations from a re-analysis of the deposited data

How the results depend on the processing

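The number of the 7 genes at least 1.5-fold higher with dTAG13 was 5 under each alternative tried: scaling by the median of ratios, all barcodes, 1000 or more genes with no more than 5% mitochondrial UMIs, equal weight per cell, cells above the DMSO median of mitotic UMIs, cells with no immediate-early UMIs, no minimum or 20 CPM, a fold of 2, and, added after the data were seen, without shared barcodes or without clusters 10 and 11. Of all genes, 14.2% passed the 1.5-fold mark in the main setting and 6.17% a fold of 2. This share was not counted under the other alternatives. Cells with no immediate-early UMIs may still express those genes, as thinned cells hold few such UMIs, so that setting sorts cells only roughly. The median log2 ratio was 1.35 without clusters 10 and 11, against 1.61 with all cells, a move that follows from leaving out the clusters with the highest levels. Over the settings the ratio ranged from 3.14 to 3.48 for Cdkn1a, 7.05 to 8.83 for Btg2, 6.31 to 7.67 for Plk2, 2.19 to 2.44 for Zmat3, 1.14 to 1.33 for Cdkn1b, 0.964 to 1.02 for Gadd45a and 2.54 to 3.16 for Gadd45g. At clustering resolution 0.5 the 7 genes summed were at least 1.5-fold higher in 7 of 7 clusters compared, at 1.58 to 2.50. No paired analysis was possible because each group is 1 library, and no library could be left out. Depth limits the small clusters most: several levels of Cdkn1b, Gadd45a and Gadd45g rest on under 10 UMIs, and counting intervals say nothing of how repeated embryoid body cultures would vary. Identity between the proteins was planned and not run.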
